A study of Rattus norvegicus with 20 samples.

Results

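The genes described here are 10 members of the integrated stress response and the unfolded protein response, measured by bulk RNA sequencing of rat dorsal root ganglia (DRG). They are the kinases Eif2ak3 and Eif2ak4, the transcription factors Xbp1, Atf4, Atf5 and Ddit3, the pseudokinase Trib3, the enzymes Asns and Chac1, and the chaperone Hspa5. They were taken by gene symbol, and all 10 were found among 39747 genes in the count table. Female Sprague-Dawley rats labelled WT received a soy oil diet (SOD) or a fish oil diet (FOD) for 4 weeks before surgery. They then underwent either chronic constriction injury (CCI) of the left sciatic nerve, in which loose ligatures are tied around the nerve, or a sham exposure of it (CT). The diets are described as continued for 4 weeks after surgery. DRG are described as collected 1 week after surgery, a shorter time than that, and gave 20 libraries from 14 rats. The left DRG gave 7 SOD libraries (4 SOD-CT, 3 SOD-CCI) and 7 FOD libraries (3 FOD-CT, 4 FOD-CCI). The right, contralateral DRG of 3 SOD-CCI and 3 FOD-CCI rats gave the other 6. All rats were thus fed an oil-defined diet and operated, and there was no unoperated group. The sham rats had no right-side library.

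The integrated stress response slows protein synthesis when a kinase phosphorylates the translation factor eIF2. PERK, encoded by Eif2ak3, does so when unfolded protein builds up in the endoplasmic reticulum, and GCN2, encoded by Eif2ak4, does so when uncharged tRNA accumulates. Messages such as Atf4 are then translated more efficiently, and ATF4 drives genes of amino acid supply and, under prolonged stress, Ddit3, Trib3 and Chac1. In the unfolded protein response the chaperone BiP, encoded by Hspa5, holds the sensors inactive, and XBP1 and ATF6 raise chaperone genes. Sensory neurons make large amounts of membrane and secreted protein in the endoplasmic reticulum. Much of this control acts on phosphorylation, splicing and translation, which counts per gene do not measure: the spliced and unspliced forms of Xbp1 share a row, and an increase in ATF4 protein need not appear in Atf4 counts.

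The promoters of the members were searched for 4 elements of these pathways, short sequences through which genes of these pathways are known to be driven. The sequences are RefSeq promoters of build GRCr8, from 250 bases before to 50 bases after the annotated start. All 10 members had one. The elements were the amino acid response form of the ATF4 site (TGATGNAA), the endoplasmic reticulum stress element ERSE (CCAAT and CCACG with a spacer of 9 bases), the XBP1 site UPRE (TGACGTGG) and the palindromic CRE (TGACGTCA), each on both strands. Capitals mark the match, and each sequence reads 5′ to 3′ on the strand of the gene.
Hspa5, ERSE, chr3:38452962-38453002, plus strand: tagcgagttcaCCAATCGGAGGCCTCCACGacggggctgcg
Xbp1, ERSE, chr14:84604547-84604587, plus strand: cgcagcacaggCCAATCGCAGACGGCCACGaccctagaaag
Chac1, ATF4 site, chr3:126795953-126795982, plus strand: cttctccgccgTTGCATCActcctgctagg
Trib3, ATF4 site, chr3:161275536-161275565, minus strand: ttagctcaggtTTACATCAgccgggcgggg
ERSE was rare, with a match in 22 of 33469 rat promoters (0.0657%), and 2 of the 10 members were among them. The ATF4 site was matched in 1332 promoters (3.98%), again with 2 members, in both of them on the opposite strand to the gene. UPRE was matched in 0.595% and CRE in 1.83% of promoters, and in no member. The window of Eif2ak3, the member called in the results, held none of these letters.

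Library totals ranged from 22547190 to 54437581 counts, so that the spread between rats and not the count set the precision for all members but Trib3. The groups were checked on 15 genes known to rise in injured sensory neurons. Their summed level was 1380 to 3950 CPM (read counts normalised to library size with TMM factors) in 6 of 7 injured DRG and 380.1 to 783 CPM in the other 13 sham and contralateral libraries. The seventh injured DRG, FOD-CCI replicate 1, had 544 CPM. Markers of neurons, satellite glia and Schwann cells were present in every library. SOD-CT replicate 1 held 118200 summed CPM of 7 skeletal muscle genes, which took 7.77% of its counts, against 5.18 to 18767 CPM elsewhere. FOD-CT replicate 1 and both sides of FOD-CCI rat 1 held 2712 to 4459 CPM of 7 spinal cord glia genes, against 34.7 to 139 CPM elsewhere, and the contralateral DRG of that rat had 3275 CPM of 8 neuron markers against 8245 to 18333 CPM in the other libraries. Values without these libraries are given beside many of the differences that they moved. The deviation of each gene from its mean over all libraries was also compared with gene length. Its Spearman correlation with length was 0.16 to 0.28 in the SOD-CCI libraries and -0.26 to -0.00037 in the FOD-CCI libraries. The injured groups of the diets thus did not overlap in it. The part of gene length in differences between them was not tested beyond refits with offsets for gene length.

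Per unit of length, the members spanned a wide range. On the FPKM scale of the authors, the medians over 20 libraries were 168 for Hspa5, 151 for Atf4, 92.8 for Atf5, 53.4 for Xbp1, 34.9 for Asns, 26.0 for Ddit3, 13.3 for Chac1, 8.42 for Eif2ak3, 3.18 for Eif2ak4 and 0.524 for Trib3. Hspa5 and Atf4 changed places between libraries, with Hspa5 higher in 12 of 20. Asns was above Ddit3, and Chac1 above Eif2ak3, in 14 of 20, while the remaining neighbours kept this order in at least 19 of 20. The kinase messages thus lay far below those of the chaperone and of Atf4, and the plot of CPM by group gives all 200 values.

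**Figure D1:**
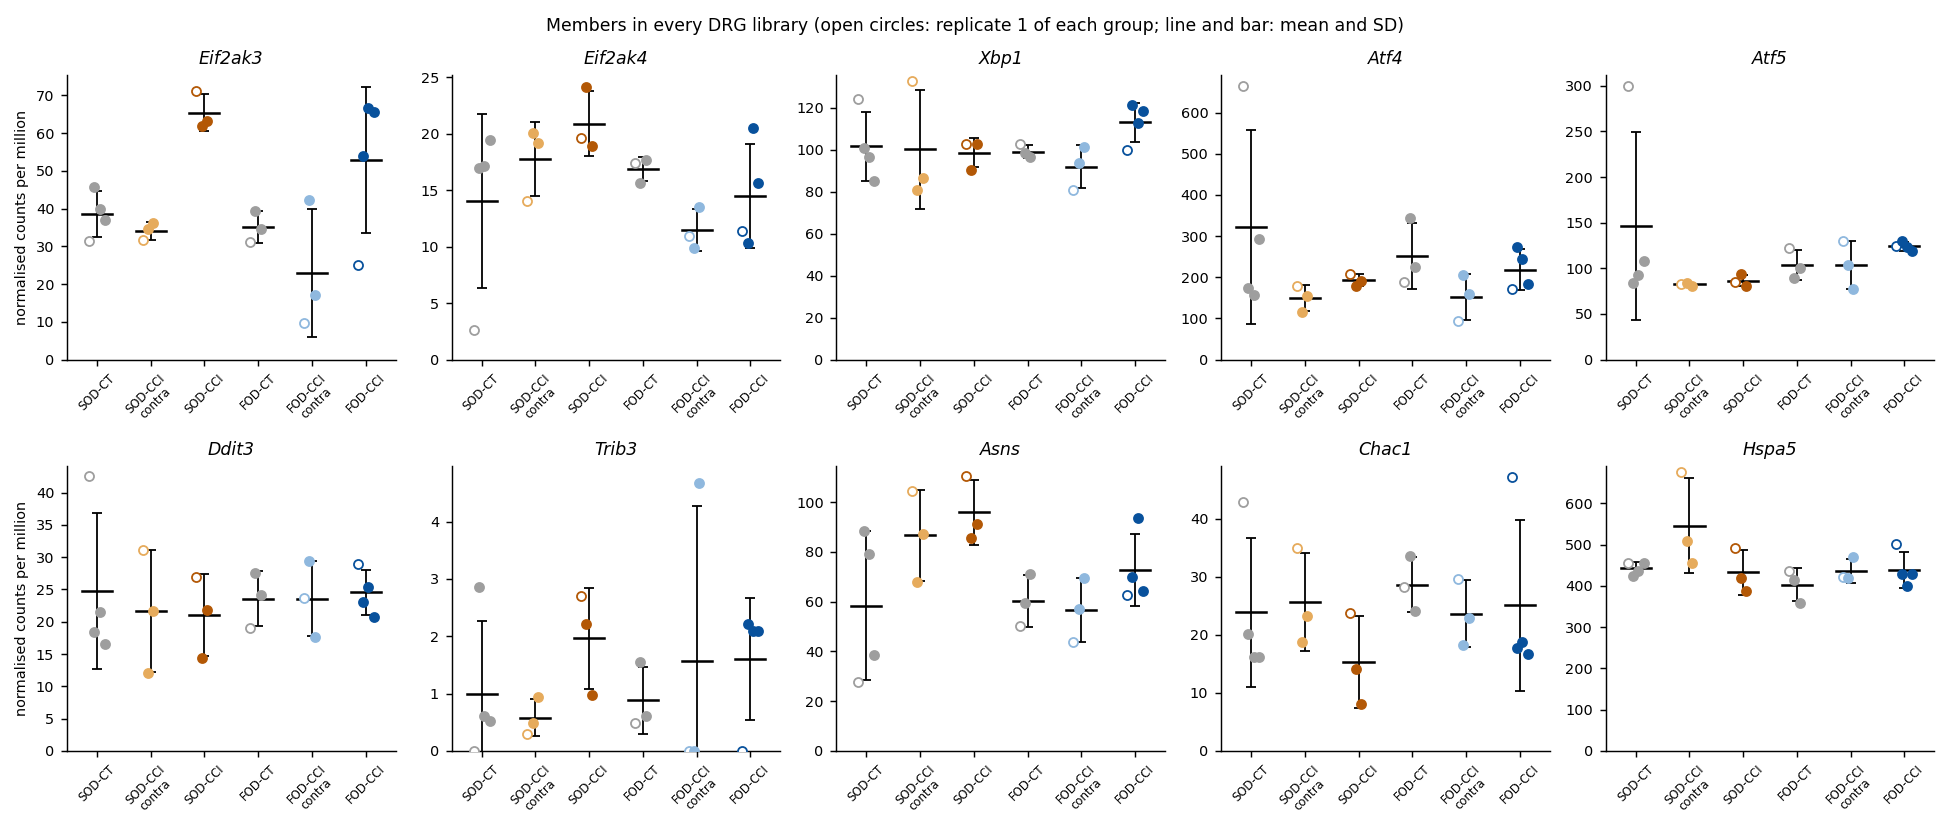
Level of each of the 10 genes in every library, as CPM on a linear axis from 0, by group; circles are libraries, open circles replicate 1 of each group, and the line and bar are the mean and SD. Eif2ak3 in the 3 SOD-CCI libraries (62.0 to 71.0 CPM) lies above all sham and contralateral libraries, while for Hspa5, Xbp1 and Ddit3 all groups compared overlap, and SOD-CT replicate 1 stands apart for Atf4, Atf5, Ddit3, Chac1 and Eif2ak4.

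Eif2ak3, the endoplasmic reticulum kinase PERK, was higher in injured DRG. In the SOD-CCI libraries it was at 71.0, 62.0 and 63.3 CPM, against 31.4, 45.8, 40.0 and 36.9 CPM in SOD-CT and 31.6, 34.7 and 36.3 CPM on the right side of these rats. In FOD-CCI it was at 25.0, 53.9, 66.7 and 65.6 CPM, against 31.1, 39.5 and 34.6 CPM in FOD-CT and 9.71, 42.2 and 17.2 CPM in the contralateral DRG of FOD-CCI replicates 1 to 3. All 3 SOD-CCI libraries thus lay above every sham and contralateral library, and so did 3 of the 4 FOD-CCI libraries. The exception was FOD-CCI replicate 1, the library with the low nerve injury genes and the spinal cord transcripts, which lay below its shams.

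Within rats, Eif2ak3 was higher on the injured side in 6 of 6 CCI rats. The left DRG held 2.25, 1.79 and 1.74 times the right in the SOD-CCI rats, and 2.57, 1.28 and 3.87 times the right in the FOD-CCI rats. The fitted log2 difference, averaged over the diets, was 1.07 ± 0.20 (SE, 6 rats), with an adjusted p of 0.0725 by the quasi-likelihood test of edgeR with the rat as a block. It was the only member called, where a call is an adjusted p of at most 0.1 with a fold change of at least 1.2, and 0.962% of the 14549 genes tested were called in that comparison. An exact two-sided sign-flip test over the 6 rats gave p = 0.03125, the smallest p that 6 rats allow, among 10 genes tested in this way. Over all genes, 5.26% were higher on the left in all 6 rats.

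**Figure D2:**
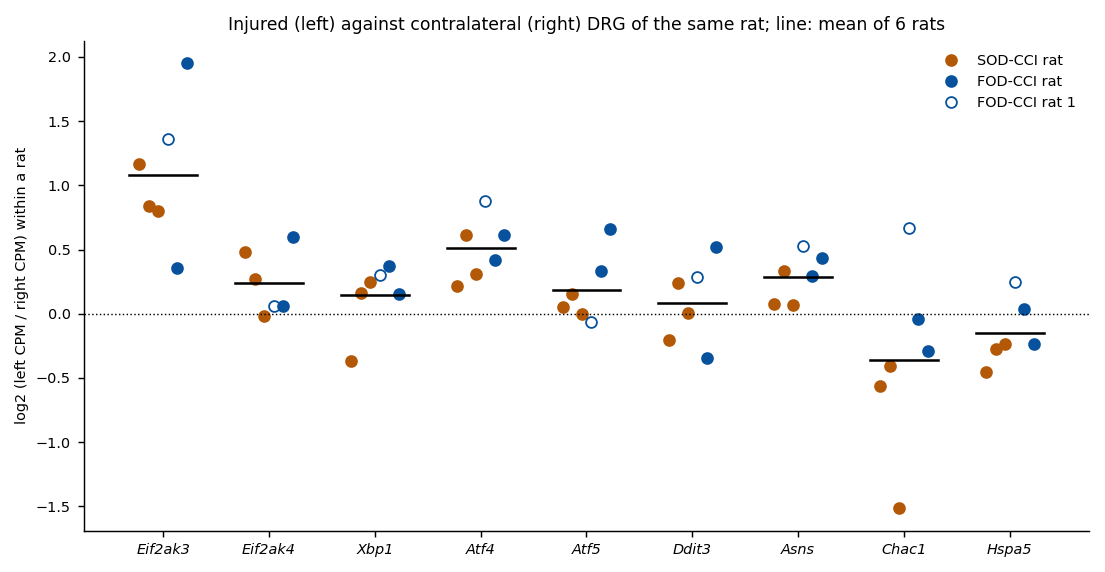
Log2 ratio of left to right CPM within each of the 6 CCI rats with both sides, for the 9 members with counts in every library; brown circles are SOD-CCI rats, blue circles FOD-CCI rats, the open circle FOD-CCI rat 1 and lines the mean of 6 rats. Eif2ak3, Atf4 and Asns lie above 0 in 6 of 6 rats, with mean ratios of 1.08, 0.51 and 0.29, and Chac1 lies below 0 in 5 of 6.

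The call did not survive the loss of some rats. Without SOD-CCI replicate 1, 2 or 3 or FOD-CCI replicate 3, the averaged log2 difference of Eif2ak3 was 1.02, 1.10, 1.09 and 0.90, with adjusted p of 0.367, 0.324, 0.306 and 0.216. Without FOD-CCI replicate 1 it was 1.03 and remained called, and the number of genes called went from 140 to 1146. Over all 12 alternatives the adjusted p ranged from 0.000128 with DESeq2 to 0.391 without the rat as a block, and the log2 difference from 0.90 to 1.29. In the diets taken apart, the left-right difference was 0.96 ± 0.27 (SE) in 3 SOD-CCI rats (adjusted p = 0.325) and 1.18 ± 0.28 in 3 FOD-CCI rats (adjusted p = 0.522). Neither passed, at backgrounds of 0.131% and 0.0137% of genes called. DESeq2 called Eif2ak3 in both, at adjusted p of 0.0742 and 0.0186, where it called 3.2% and 1.81% of genes, and in the average over the diets, where it called 5.38%. The 2 differences did not differ detectably from each other (0.22 ± 0.39, adjusted p = 0.997). With 3 rats a diet, an exact test cannot go below the usual thresholds.

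The same direction was seen against sham rats. The log2 difference of Eif2ak3 was 0.77 ± 0.27 (SE) for SOD-CCI over SOD-CT (adjusted p = 0.294) and 0.59 ± 0.28 for FOD-CCI over FOD-CT (adjusted p = 1.00). Averaged over the diets it was 0.68 ± 0.20, a 1.60-fold difference (adjusted p = 0.184), and an exact permutation within the diets gave a two-sided p of 0.0155 over 1225 arrangements. The permutation was run on each of the 10 members without adjustment. Eif2ak3 had the smallest p and Asns the next, at 0.0514. No gene at all was called by edgeR in these comparisons (0%), although 13.8%, 4.52% and 11.5% of 14484 genes had an unadjusted p under 0.05, and DESeq2 called 571, 9 and 476 genes. DESeq2 called Eif2ak3 in the average over the diets, at an adjusted p of 0.0614, with 3.29% of genes called.

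Without the 3 left libraries that held muscle or spinal cord transcripts, SOD-CT replicate 1, FOD-CT replicate 1 and FOD-CCI replicate 1, Eif2ak3 passed in each of these comparisons. The log2 difference was then 0.68 for the SOD groups (adjusted p = 0.0818), 0.73 for the FOD groups (adjusted p = 0.0636) and 0.71 on average (adjusted p = 0.00568), at backgrounds of 1.32%, 3.47% and 7.77% of 15177 genes called. Over all alternatives the adjusted p ranged from 0.0818 to 0.647 for the SOD groups, from 0.0636 to 1.00 for the FOD groups and from 0.00568 to 0.432 for the average. Without FOD-CCI replicate 1 alone the average was 0.80 and was called. The FOD difference was then 0.82, and neither it nor the SOD difference was called. In bulk DRG a change in the share of a cell type and a change in RNA per cell cannot be told apart, and the part of either in the Eif2ak3 values was not tested. Summed neuron markers were 13118 to 16423 CPM in SOD-CCI against 16742 to 18154 CPM on the right side of the same rats and were lower on the left in 3 of 3 of them. In the FOD-CCI rats they were at 14718, 11525 and 15108 CPM on the left and at 3275, 16758 and 14638 CPM on the right, thus higher on the left in replicates 1 and 3, the rats with the largest Eif2ak3 ratios. Summed macrophage markers were 157 to 224 CPM on the left and 22.8 to 63.2 CPM on the right of the SOD-CCI rats. In FOD-CCI they were 147, 301 and 282 CPM on the left against 271, 104 and 181 CPM on the right, thus higher on the left in 2 of 3 rats.

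**Figure D3:**
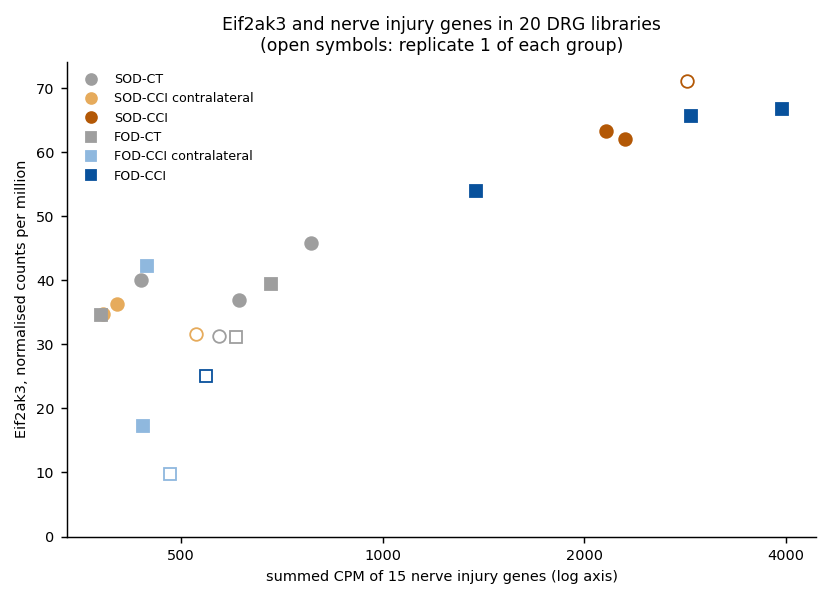
Eif2ak3 CPM on a linear axis against the summed CPM of 15 nerve injury genes on a log axis, in 20 libraries; circles are SOD and squares FOD libraries, colours are groups and open symbols replicate 1 of each group. The 6 libraries with 1380 CPM or more of nerve injury genes hold 53.9 to 71.0 CPM of Eif2ak3, the 14 others hold 9.71 to 45.8 CPM, and FOD-CCI replicate 1 sits among the latter at 25.0 CPM.

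Diet did not separate the Eif2ak3 levels. FOD-CCI was lower than SOD-CCI by a fitted log2 difference of -0.30 ± 0.28 (adjusted p = 0.887), with overlapping libraries, and by -0.07 without FOD-CCI replicate 1. The diet by injury interaction was -0.18 ± 0.39 (adjusted p = 0.936). The interaction changed sign, to 0.05, without the 3 libraries and to 0.05 with offsets for gene length. FOD-CT and SOD-CT differed by -0.11 ± 0.28 (adjusted p = 0.984). In contralateral DRG the difference from sham was -0.20 ± 0.37 in the SOD groups and -0.57 ± 0.40 in the FOD groups, and that between the diets was -0.49 ± 0.40, none of them near the threshold (adjusted p = 0.917, 1.00 and 0.783). The FOD difference from sham went to -0.21 without the contralateral library of replicate 1, which held spinal cord transcripts, and to -1.34 without that of replicate 2. The difference between the diets went to -0.12 and -1.26 in the same way. The lowest Eif2ak3 level of the series, 9.71 CPM, was in the contralateral library with few neuron markers.

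The genes whose levels followed Eif2ak3 most closely over the 14 left libraries were Tubb2b, a neuronal beta-tubulin (Pearson r = 0.975, Spearman rho = 0.952), Tagln2, an actin-binding protein (r = 0.971, rho = 0.974), and Il13ra1, a cytokine receptor chain (r = 0.965, rho = 0.947). These are descriptions over libraries that share the injury contrast. Of the other members, Asns followed it most closely (r = 0.66, rho = 0.77), then Eif2ak4 (r = 0.44, rho = 0.49), while Chac1 ran opposite to it (r = -0.69, rho = -0.59).

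Eif2ak4, the amino acid sensing kinase GCN2, gave no call in any comparison. It was at 19.6, 24.2 and 18.9 CPM in SOD-CCI and at 11.4, 10.3, 20.5 and 15.7 CPM in FOD-CCI. The sham levels were 2.60, 17.0, 17.1 and 19.5 CPM in SOD-CT and 17.4, 15.6 and 17.6 CPM in FOD-CT. The 2 injured groups overlapped through FOD-CCI replicate 3, and a very low value stood in SOD-CT replicate 1. The fitted difference of FOD-CCI from SOD-CCI was -0.52 ± 0.47 (adjusted p = 0.885), and it ranged from -0.72 to -0.35 over the alternatives. SOD-CCI differed from SOD-CT by 0.58 ± 0.47 (adjusted p = 0.585) and FOD-CCI from FOD-CT by -0.23 ± 0.47 (adjusted p = 1.00), and the interaction was -0.81 ± 0.66 (adjusted p = 0.894). Without SOD-CT replicate 1 the SOD difference was 0.23 and the interaction -0.46, and without FOD-CCI replicate 1 the FOD difference was -0.13.

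In contralateral DRG, Eif2ak4 was at 14.03 CPM in replicate 1 and at 20.1 and 19.2 CPM in replicates 2 and 3 of SOD-CCI and at 10.9, 9.92 and 13.5 CPM in the FOD-CCI rats, with a fitted difference of -0.55 ± 0.52 (adjusted p = 0.806). The fitted difference of FOD-CCI from SOD-CCI was negative on both sides of the body without passing the test on either. The right DRG came from rats that also gave left DRG, so the sides are not independent. Left and right differed by 0.23 ± 0.17 (adjusted p = 0.652), with the left higher in 5 of 6 rats, by at most 1.51-fold.

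Atf4, the transcription factor at the centre of the integrated stress response, was higher on the injured side in 6 of 6 CCI rats. The left DRG held 208, 179 and 191 CPM and the right 179, 117 and 155 CPM in SOD-CCI replicates 1 to 3. In FOD-CCI replicates 1 to 3 the left held 171, 274 and 245 CPM and the right 92.7, 205 and 160.2 CPM, and the left DRG of FOD-CCI replicate 4 held 184 CPM. Ratios of left to right lay between 1.16 and 1.84. The highest was in FOD-CCI replicate 1, whose left DRG had low nerve injury genes and whose right DRG had few neuron markers. The averaged log2 difference was 0.50 ± 0.13 (SE, 6 rats, adjusted p = 0.192) and was not called by edgeR, while DESeq2 called it at an adjusted p of 0.0258. Over its alternatives the adjusted p ranged from 0.0258 to 0.690, and without FOD-CCI replicate 1 the averaged difference was 0.44. The exact sign-flip p was 0.03125, again the smallest possible. In the diets taken apart the difference was 0.41 ± 0.19 (adjusted p = 0.617) and 0.59 ± 0.19 (adjusted p = 0.605).

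Against sham rats Atf4 gave no call. The sham libraries held 664, 174, 157 and 292 CPM in SOD-CT and 189.6, 343 and 224 CPM in FOD-CT, and both groups overlapped the injured DRG of their diet. The fitted difference was -0.74 ± 0.43 in the SOD groups (adjusted p = 0.450), -0.21 ± 0.42 in the FOD groups (adjusted p = 1.00) and -0.48 ± 0.30 on average (adjusted p = 0.570), the last of which was -0.16 without SOD-CT replicate 1. The FOD difference was -0.38 without FOD-CT replicate 1 and -0.11 without FOD-CCI replicate 1. The highest values, 664, 343 and 292 CPM, were in the sham libraries with the most muscle transcripts, SOD-CT replicate 1, FOD-CT replicate 2 and SOD-CT replicate 4 (118200, 18767 and 4278 summed CPM of muscle genes), and the part of muscle in them was not tested. Over the 14 left libraries the gene most like Atf4 was Tnnc1, a troponin of slow and cardiac muscle (r = 0.976, rho = 0.934). Over the alternatives the SOD difference stayed negative, from -0.97 to -0.11, the latter without SOD-CT replicate 1. Contralateral DRG also lay below sham, by a fitted -1.15 ± 0.48 in the SOD groups (adjusted p = 0.700) and -0.69 ± 0.50 in the FOD groups (adjusted p = 1.00). These were -0.50 without SOD-CT replicate 1 and -0.44 without the contralateral library of FOD-CCI replicate 1.

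**Figure D4:**
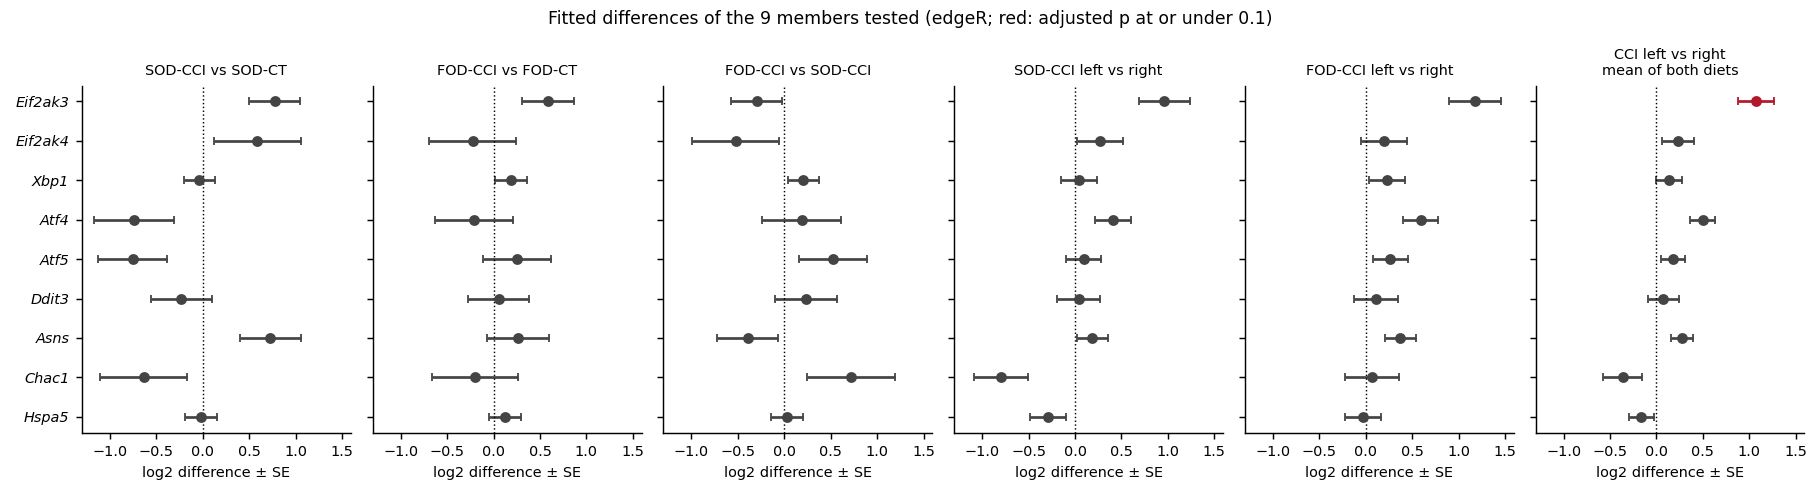
Fitted log2 difference ± SE of the 9 members tested, in 6 comparisons; grey points did not pass and the red point had an adjusted p of at most 0.1 in edgeR. Eif2ak3 lies right of 0 in each comparison of injured with sham or contralateral DRG (0.59 to 1.18), while Atf4 lies left of 0 against sham and right of 0 against the contralateral side.

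Asns, which encodes asparagine synthetase and is a textbook ATF4 target, was also higher on the left in 6 of 6 rats, but by little. It was at 110.4, 85.7 and 91.3 CPM in SOD-CCI against 105, 68.1 and 87.1 CPM on the right side of those rats, and at 62.7, 69.9, 93.6 and 64.1 CPM in FOD-CCI against 43.6, 56.9 and 69.4 CPM on the right of replicates 1 to 3. The largest ratio of left to right, 1.44, was again in FOD-CCI replicate 1. The averaged log2 difference was 0.28 ± 0.12 (SE, 6 rats, adjusted p = 0.410), with 0.19 ± 0.17 in the SOD-CCI rats (adjusted p = 0.842) and 0.37 ± 0.17 in the FOD-CCI rats (adjusted p = 0.707).

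Sham levels of Asns were 27.5, 88.5, 79.2 and 38.4 CPM in SOD-CT and 50.2, 59.6 and 71.2 CPM in FOD-CT. SOD-CT thus held 2 low libraries, which were also those with the most muscle transcripts of their group. The part of muscle in these values was not tested. SOD-CCI exceeded SOD-CT by 0.73 ± 0.33 (adjusted p = 0.351), or by 0.49 without SOD-CT replicate 1. FOD-CCI exceeded FOD-CT by 0.26 ± 0.33 (adjusted p = 1.00), or by 0.15 without FOD-CT replicate 1. The average was 0.50 ± 0.23 (adjusted p = 0.442), or 0.38 without SOD-CT replicate 1. FOD-CCI was lower than SOD-CCI by a fitted -0.39 ± 0.33 (adjusted p = 0.876), and the contralateral DRG of the diets differed by -0.52 ± 0.38 (adjusted p = 0.750). The genes most like Asns were Lrrc59, a ribosome receptor of the endoplasmic reticulum (r = 0.965), Slc1a4, a neutral amino acid transporter (r = 0.961), and Nptxr, the neuronal pentraxin receptor (r = 0.952), over 14 left libraries.

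Atf5, a factor related to ATF4 that is also translated under stress, was even within most groups. It was at 85.1, 93.5 and 81.0 CPM in SOD-CCI and at 124, 129.9, 123 and 119 CPM in FOD-CCI, so that the injured groups of the diets did not overlap. The sham levels were 299.5, 84.3, 92.6 and 108 CPM in SOD-CT and 122, 89.3 and 101 CPM in FOD-CT, where SOD-CT replicate 1 stood apart. Non-overlap of FOD-CCI and SOD-CCI was found for 14% of all genes, and Atf5 was 1 of 9 members. The fitted difference was 0.53 ± 0.37 (adjusted p = 0.862), and it ranged from 0.30 to 0.59 over the alternatives. These are the groups that were also apart in the correlation with gene length, and Atf5 is short, at 1030 bases. The part of gene length in the Atf5 difference was not tested beyond the refits with offsets for gene length.

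The interaction of Atf5, 1.01 ± 0.52 (adjusted p = 0.894), was the largest of the members. It rests on a difference of -0.76 ± 0.37 from sham in the SOD groups (adjusted p = 0.377) and of 0.26 ± 0.36 in the FOD groups (adjusted p = 1.00). Without SOD-CT replicate 1 the interaction was 0.38 and the SOD difference -0.13, and without FOD-CT replicate 1 the FOD difference was 0.38. Between the sham groups Atf5 differed by -0.48 ± 0.37 and Atf4 by -0.34 ± 0.43 (adjusted p = 0.965 and 0.966), and both turned positive, to 0.15 and 0.30, without SOD-CT replicate 1. Left and right differed by 0.18 ± 0.13 (adjusted p = 0.652) in Atf5, and contralateral DRG of the SOD-CCI rats by -0.87 ± 0.41 from SOD-CT (adjusted p = 0.700), or by -0.23 without SOD-CT replicate 1.

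Ddit3, which encodes the pro-apoptotic factor CHOP, gave no call with injury. It was at 27.0, 14.3 and 21.8 CPM in SOD-CCI and at 28.9, 23.1, 25.4 and 20.8 CPM in FOD-CCI, within the range of the contralateral libraries (12.1 to 31.1 CPM). The sham libraries held 16.5 to 27.5 CPM, except SOD-CT replicate 1 at 42.6 CPM. The averaged left-right difference was 0.08 ± 0.17 (adjusted p = 0.90), higher on the left in 4 of 6 rats. The differences from sham were -0.23 ± 0.33 in the SOD groups (adjusted p = 0.777) and 0.06 ± 0.33 in the FOD groups (adjusted p = 1.00), and FOD-CCI differed from SOD-CCI by 0.23 ± 0.33 (adjusted p = 0.938). Without SOD-CT replicate 1 the SOD difference was 0.16, without FOD-CT replicate 1 the FOD difference was -0.08, and without FOD-CCI replicate 1 FOD-CCI differed from SOD-CCI by 0.15.

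Chac1, a glutathione-degrading enzyme induced by ATF4, was lower on the injured side in the SOD-CCI rats. The left DRG held 23.8, 14.1 and 8.12 CPM and the right 35.0, 18.7 and 23.3 CPM in SOD-CCI. In FOD-CCI the left held 47.2, 17.8, 18.7 and 16.6 CPM and the right 29.7, 18.3 and 22.9 CPM, with the highest value in replicate 1. All 3 SOD-CCI rats were lower on the left, and the fitted difference was -0.80 ± 0.29 (adjusted p = 0.482, range over the alternatives 0.201 to 1.00). In the FOD-CCI rats it was 0.07 ± 0.29 (adjusted p = 0.972) and turned to -0.22 without FOD-CCI replicate 1. The averaged difference was -0.37 ± 0.21 (adjusted p = 0.549) and the difference between the diets 0.86 ± 0.41 (adjusted p = 0.997).

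Against sham, Chac1 differed by -0.64 ± 0.47 in the SOD groups (adjusted p = 0.552) and by -0.20 ± 0.46 in the FOD groups (adjusted p = 1.00), and FOD-CCI exceeded SOD-CCI by 0.72 ± 0.47 (adjusted p = 0.862). The SOD difference was -0.19 without SOD-CT replicate 1, and without FOD-CCI replicate 1 the FOD difference was -0.70 and that between the injured groups 0.22. The sham libraries held 42.9, 20.1, 16.2 and 16.3 CPM in SOD-CT and 28.2, 33.6 and 24.2 CPM in FOD-CT. The 3 highest of these were in SOD-CT replicate 1, FOD-CT replicate 2 and FOD-CT replicate 1, which held muscle or spinal cord transcripts. SOD-CT replicate 4, which held 4278 summed CPM of muscle genes, was low in Chac1, at 16.3 CPM. The part of these tissues in the Chac1 values was not tested. Chac1 and Ddit3 thus gave no call by edgeR in any comparison, while Eif2ak3 gave 1.

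Trib3, a pseudokinase induced by ATF4 and CHOP, was close to the limit of detection. It had 0 counts in 4 libraries and 120 counts at most, which did not pass the filter of 10 counts in 90% of libraries, and it was not tested. The levels were 2.70, 2.21 and 0.983 CPM in SOD-CCI, 0.302, 0.495 and 0.942 CPM on the right side of the same rats, and 0, 2.86, 0.616 and 0.522 CPM in SOD-CT. In FOD-CCI they were 0, 2.22, 2.09 and 2.09 CPM, against 0, 0 and 4.68 CPM on the right side and 0.487, 1.55 and 0.611 CPM in FOD-CT. The SOD-CCI libraries lay above the contralateral ones by a narrow gap, and no other pair of groups was separated. A count of 0 allowed up to 0.110 to 0.200 CPM in the 4 libraries at 0, for counting error only.

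Hspa5, the chaperone BiP and the usual readout of the unfolded protein response, varied little between groups. It was at 493, 419.9 and 387 CPM in SOD-CCI and at 501, 428, 399 and 428 CPM in FOD-CCI. The sham libraries held 423 to 455 CPM in SOD-CT and 358 to 437 CPM in FOD-CT, and the contralateral libraries 675, 507 and 455 CPM in the SOD-CCI rats and 422, 418 and 470.4 CPM in the FOD-CCI rats. The fitted differences from sham were -0.02 ± 0.17 in the SOD groups (adjusted p = 0.963) and 0.12 ± 0.17 in the FOD groups (adjusted p = 1.00), and FOD-CCI and SOD-CCI differed by 0.03 ± 0.17 (adjusted p = 0.983). The left side was lower in all 3 SOD-CCI rats, by -0.29 ± 0.19 (adjusted p = 0.771), and differed by -0.03 ± 0.19 in the FOD-CCI rats (adjusted p = 0.981) and by -0.16 ± 0.14 on average (adjusted p = 0.694).

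Xbp1, the factor that is spliced by IRE1 in the unfolded protein response and shares the ERSE element with Hspa5, was as even. Its levels were 103, 90.6 and 103 CPM in SOD-CCI and 99.9, 121, 113 and 118 CPM in FOD-CCI, with 85.3 to 124 CPM in the sham and 80.9 to 133 CPM in the contralateral libraries. The differences from sham were -0.04 ± 0.17 (adjusted p = 0.938) and 0.19 ± 0.17 (adjusted p = 1.00), and FOD-CCI differed from SOD-CCI by 0.21 ± 0.17 (adjusted p = 0.872). Left and right differed by 0.14 ± 0.14 on average (adjusted p = 0.742), by 0.04 ± 0.19 in the SOD-CCI rats (adjusted p = 0.974) and by 0.23 ± 0.19 in the FOD-CCI rats (adjusted p = 0.841). The 2 members with an ERSE thus showed no call, and over the 14 left libraries their levels had a correlation of r = 0.03 (rho = 0.19).

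The members were also counted at an unadjusted p. At an unadjusted p under 0.05, 3 of 9 members were higher on the left in the average over the diets (Eif2ak3, Atf4 and Asns), where 11.6% of genes passed in either direction. In the SOD-CCI rats 1 was higher and 1 lower (background 8.48%), and in the FOD-CCI rats 2 were higher (background 6.96%). Against sham, 2 members (Eif2ak3 and Asns) of 9 were higher at that level in SOD-CCI (background 13.8%), none in FOD-CCI (4.52%) and 1, Eif2ak3, in the average (11.5%). None was past it between FOD-CCI and SOD-CCI (background 5.4%), between FOD-CT and SOD-CT (3.39%), in the diet by injury interaction (5.01%) or in the left-right difference between the diets (2.91%). In contralateral DRG 1 member, Atf4, was lower than SOD-CT (7.06%), and none differed from FOD-CT (1.71%) or between the diets (7.1%). Adjusted over all genes, edgeR called no gene in the comparisons of the diets and of contralateral with sham DRG. DESeq2 called 2 genes for FOD-CCI over SOD-CCI, 2 for the interaction, 60 for the left-right difference between the diets, 52 for contralateral SOD-CCI over SOD-CT and 58 between the contralateral DRG of the diets, and 0 in the other 2.

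Non-overlap of groups was found for Eif2ak3, Atf5 and the untested Trib3, and not for Atf4 or Asns. Eif2ak3 was the only member whose SOD-CCI libraries did not overlap SOD-CT, as was the case for 17.6% of genes, and the only tested member whose SOD-CCI libraries did not overlap their right sides (20.6% of genes). No member was without overlap between FOD-CCI and FOD-CT (4.51%), between FOD-CT and SOD-CT (3.17%), or between FOD-CCI and its contralateral DRG (3.73%). A share of 1 in 9 was therefore no more than that of all genes, and the left-right difference within rats was the comparison in which Eif2ak3 stood out.

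Beyond the members, 114 further genes of both pathways were followed as lists, of which 105 to 107 were tested. None was called by edgeR in any comparison. In SOD-CCI against SOD-CT 7 were higher and 7 lower at an unadjusted p under 0.05, with a median log2 difference of 0.12 against -0.01 over all genes, while the FOD groups gave 5 higher and none lower, with a median of 0.12 against 0.01. On the injured side of CCI rats 9 were higher and 4 lower, and the median was 0.01 against 0.03 over all genes. These counts were 13.1%, 4.67% and 12.3% of the pathway genes tested, close to the 13.8%, 4.52% and 11.6% of all genes. Eif2ak3 differed 2.10-fold in that comparison.

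The lists differed in detail. All 13 aminoacyl-tRNA synthetases, which charge tRNA with amino acids, had a positive difference between SOD-CCI and SOD-CT, with 2 at an unadjusted p under 0.05 and a median of 0.35. When SOD-CT replicate 1 was left out, 12 of 13 were positive, at a median of 0.26, and in the FOD groups it was 0.11, with 7 of 13 positive. The cysteinyl-tRNA synthetase gene Cars, at 0.82 ± 0.26 (adjusted p = 0.266), had the smallest p of its list in the SOD groups, and the threonyl-tRNA synthetase gene Tars, at 0.75 ± 0.26 (adjusted p = 1.00), in the FOD groups. All 11 genes of eIF2 and its exchange factor had a negative difference in the SOD groups (median -0.20), and 8 of 11 when SOD-CT replicate 1 was left out (median -0.22), with Eif2s1, the subunit that PERK and GCN2 phosphorylate, at -0.90 ± 0.28 (adjusted p = 0.266). In the FOD groups 6 of 11 were positive. Eif2s1 was also lower than SOD-CT in contralateral SOD-CCI (-0.86) and in FOD-CT (-0.83). Between the sides of the SOD-CCI rats it differed by -0.02. Its mean was 152 CPM (SD 49.2) in SOD-CT and 78.2 to 86.2 CPM in the other groups.

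Chaperones and folding enzymes of the endoplasmic reticulum showed 8 of 15 positive differences in SOD-CCI against SOD-CT, 13 of 15 in FOD-CCI against FOD-CT and 4 of 15 on the injured side, with medians of 0.07, 0.23 and -0.08. The co-chaperone component Sdf2l1 (0.78 ± 0.32) and the translocon subunit Sec61b (0.76 ± 0.27) had the smallest p among folding and secretory genes in the FOD groups (both adjusted p = 1.00). Vimp, a selenoprotein of degradation at the endoplasmic reticulum, was at -0.81 ± 0.29 in the SOD groups (adjusted p = 0.295). It was at -0.70 in contralateral SOD-CCI against SOD-CT and at -0.12 between the sides of the SOD-CCI rats. Between FOD-CCI and SOD-CCI the smallest p belonged to Sec61g, another translocon subunit (1.41 ± 0.44), Psph, the last enzyme of serine synthesis (0.66 ± 0.23), and Sec61b (0.71 ± 0.27), each with an adjusted p of 0.859. The contralateral DRG of the diets differed in the same direction, by 1.42 for Sec61g, 0.52 for Psph and 0.31 for Sec61b, again without a call.

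Among amino acid synthesis genes driven by ATF4, the sides of the SOD-CCI rats differed by -0.71 ± 0.19 for Psat1, a serine synthesis enzyme, and by 2.48 ± 0.72 for Aldh1l2, a mitochondrial folate enzyme (adjusted p = 0.283 and 0.330). The transcription factor Nfil3 differed by 1.82 ± 0.54 (adjusted p = 0.346). In the FOD-CCI rats Mthfd2, a mitochondrial folate enzyme, differed by 0.73 ± 0.23, Cbs, of transsulfuration, by -1.02 ± 0.34, and Slc6a9, a glycine transporter, by 1.43 ± 0.51 (adjusted p = 0.596, 0.623 and 0.623). Each of these 6 genes had the same sign in both diets: in the FOD-CCI rats Psat1 was at -0.35, Aldh1l2 at 2.03 and Nfil3 at 0.93, and in the SOD-CCI rats Mthfd2 was at 0.32, Cbs at -0.60 and Slc6a9 at 0.54. The difference between the diets had an adjusted p of 0.997 for each. Some of these levels were uneven within groups. Slc6a9 had means of 69.5 CPM (SD 124) in FOD-CCI and 89.99 CPM (SD 154) in its contralateral DRG. The left mean takes in 4 libraries and the right mean 3, since replicate 4 has no right side and was not in the left-right fit. These means are therefore not a paired comparison and do not bear on the fitted sign. Psat1 had means of 64.2 CPM (SD 59.2) and 101 CPM (SD 97.6) over the same FOD-CCI and contralateral libraries. Cbs had means of 3.95 CPM (SD 4.92) in SOD-CCI and 7.16 CPM (SD 9.91) on the right. The part of spinal cord transcripts, held on both sides of FOD-CCI rat 1, in the FOD values was not tested. Of the nerve injury genes measured in the same libraries, 9 of 12 tested were called higher on the injured side, against 1 of 9 members.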

How the data were processed

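RNA from 20 rat DRG libraries was analysed from the count table that the authors deposited: whole-number counts of fragments per gene, made with fastp, HISAT2 and featureCounts 1.5.0-p3 per the labels, unscaled and not pooled. Neither the build nor strand use or multiply aligned reads are described; they are not given in the sources used here. FPKM values deposited by the authors are those counts divided by gene length and a factor per library, and were used only to compare genes. All 20 columns were mapped to samples (0 left over), and 3781 of the genes carry no name. Depth was 22547190 to 54437581 counts per library.

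Counts were fitted with R 4.3.3, edgeR 4.0.16 (quasi-likelihood test, two-sided, TMM) and limma 3.58.1. Genes with at least 10 counts in 90% of the fitted libraries were kept, and p-values were adjusted by Benjamini-Hochberg over all genes tested. Calls needed an adjusted p up to 0.1 together with a fold change of 1.2 or more. The 3 fits were of 14 left libraries, of both sides of 6 rats with the rat as a block, and of 13 sham and contralateral libraries. Replicates are separate rats, but left and right of a CCI rat share the animal. Deviations from the group means correlated at 0.11 to 0.43 between the sides of each rat. SE is the log2 difference divided by the root of the test's F. Log2 CPM used a prior count of 1 and a count of 0 a floor of 3 counts.

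Alternatives were DESeq2 1.42.0, RLE factors, no filter, offsets for gene length, the block, and libraries left out. On simulated counts for the left-right average, 43.3% of genes changed 2-fold were called, among 14320 genes, and for the left average over the diets 33.8%, among 14148. The members and lists were chosen with earlier results of these data known. Named genes are the members, the 3 pathway genes with the smallest p in 5 comparisons, and the 3 genes most like each member discussed. For the members, comparisons not spelled out in words gave no call. Promoters came from the RefSeq tables of GRCr8, and coordinates are of that build only.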

Additional observations from a re-analysis of the deposited data

Results flagged for a closer look

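In each group of 4 libraries the lowest and the highest value of every member were set against the other libraries by the gap over the range (Dixon's 95% limit). These sets share their libraries across members and are not independent, so the number flagged does not measure an excess over chance. Chance flags about 1 in 20 such sets taken singly, and 5 of 20 were found. Of these, 3 lay in SOD-CT replicate 1, which held muscle transcripts: Eif2ak4 at 2.60 CPM against 17.0 to 19.5 in the other libraries, Atf5 at 299.5 CPM against 84.3 to 108, and Chac1 at 42.9 CPM against 16.2 to 20.1. The other 2 lay in FOD-CCI replicate 1, the library with spinal cord transcripts and low nerve injury genes: Chac1 at 47.2 CPM against 16.6 to 18.7, and Trib3 at 0 CPM against 2.09 to 2.22. The part of the other tissues in these values was not tested.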

How the results depend on the processing

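Of 73 log2 differences of members, 56 kept their sign under every alternative. Counted over the single refits of all these differences, 1237 gave the same result, 36 changed the sign, 5 lost a call and 8 gained one. The sign changes included Atf4 and Atf5 in FOD-CT vs SOD-CT, at -0.34 and -0.48 with all libraries. The causes of the changes were not tested. The number of genes called depended strongly on the tool and on single libraries.

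With DESeq2, 571 genes were called for SOD-CCI vs SOD-CT, 9 for FOD-CCI vs FOD-CT, 476 for their average, 2 for FOD-CCI vs SOD-CCI, 2 for the interaction, 466 and 264 for left vs right in SOD-CCI and FOD-CCI, 783 for the left-right average, 60 for its difference between the diets, 52 for SOD-CCI contralateral vs SOD-CT and 58 between contralateral DRG. It called 1 member (Eif2ak3) in the average against sham and in each left-right comparison by diet, and 2 (Eif2ak3 and Atf4) in the left-right average. The average against sham gave 24 calls with RLE factors, 224 without the filter and 76 with gene length offsets, from 0. Without the filter, left vs right gave 220 calls in SOD-CCI, 61 in FOD-CCI, 456 on average and 3 for the difference, against 19, 2, 140 and 0. Without the 3 libraries with muscle or spinal cord transcripts, 200, 526 and 1180 genes were called against sham in SOD, FOD and on average, with 1 member, Eif2ak3, in each.

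Leaving out each library in turn gave 0 to 47 calls for SOD-CCI vs SOD-CT, 0 to 43 for FOD-CCI vs FOD-CT, 0 to 517 for their average (0 to 1 member), 0 to 471 and 0 to 137 for left vs right in SOD-CCI and FOD-CCI, and 8 to 1146 for the left-right average (0 to 1 member). In each of these the highest count was without FOD-CCI replicate 1. Log2 differences that changed sign in this way ranged from -0.11 to 0.073 for Xbp1, -0.44 to 0.16 for Ddit3 and -0.11 to 0.050 for Hspa5 in SOD-CCI vs SOD-CT, from -0.38 to 0.085 for Atf4 and -0.076 to 0.19 for Ddit3 in FOD-CCI vs FOD-CT, and from -0.040 to 0.12 for Hspa5 in FOD-CCI vs SOD-CCI. For FOD-CT vs SOD-CT they were -0.64 to 0.30 for Atf4 and -0.67 to 0.15 for Atf5, and for the interaction of Eif2ak3 -0.32 to 0.047. Between the sides they were -0.11 to 0.23 for Xbp1 and -0.073 to 0.15 for Ddit3 in SOD-CCI, -0.047 to 0.35 for Ddit3, -0.22 to 0.30 for Chac1 and -0.15 to 0.12 for Hspa5 in FOD-CCI, -0.0038 to 0.19 for Ddit3 on average, and -0.13 to 0.65 for the diet difference of Eif2ak3.

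Other sign changes were as follows. Total counts gave 0.12 for Xbp1 and 0.11 for Hspa5 in SOD-CCI vs SOD-CT and -0.027 for Hspa5 in FOD-CCI vs SOD-CCI. Gene length offsets gave Ddit3 0.093, -0.079 and -0.043 in SOD-CCI vs SOD-CT, FOD-CCI vs FOD-CT and FOD-CCI vs SOD-CCI, and 0.055 for the interaction of Eif2ak3. Without the 3 libraries the values were 0.072 for Xbp1 and 0.16 for Ddit3 in SOD-CCI vs SOD-CT, -0.17 for Ddit3 in FOD-CCI vs FOD-CT, -0.033 for Hspa5 in FOD-CCI vs SOD-CCI, 0.47 for Atf4 and 0.026 for Atf5 in FOD-CT vs SOD-CT, and 0.051 for the interaction of Eif2ak3. Without the filter Hspa5 was at 0.015 in FOD-CCI left vs right.

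Left and right pair by rat. Without that replicate block, 0, 0 and 10 genes were called in SOD-CCI, FOD-CCI and on average, with 0 members (Eif2ak3 0.99, adjusted p = 0.391), and Ddit3 in SOD-CCI was at -0.0093. Between rats a shared replicate number marks different animals, and the block on it gave 1 call for SOD-CCI vs SOD-CT and 1 for the average. Correlations of same-numbered deviations were 0.07, 0.08 and -0.08 for SOD-CT with SOD-CCI and 0.43, 0.24 and 0.19 for FOD-CT with FOD-CCI. Depth limited only Trib3.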
